A study of Mus musculus with 4 samples.

Results

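Satb1, Lsp1, Ccr9, Il12a, Notch1 and Mef2c are 6 of the 32285 genes counted in 4 single-cell libraries of mouse bone marrow, and all 6 were found in the matrices by their symbols. They were taken as a named list of lymphoid priming genes. A level is given in CPM, the UMIs (unique molecular identifiers, counted RNA molecules) of a gene per 1000000 UMIs of the cells summed, and a share is that of cells with at least 1 UMI. Both cover barcodes that showed 1000 genes or more with no more than 10% of their UMIs from mitochondrial genes.

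The study set blood stem and progenitor cells with Mll3, Mll4 or both deleted against control cells. Mll3 and Mll4 are histone H3 lysine methyltransferases encoded by Kmt2c and Kmt2d. Each group is 1 library of donor-type (CD45.2+), lineage-negative, Sca1+, Kit+ bone marrow cells (LSK cells) taken 10 weeks after transplantation: control, Mll3 deleted, Mll4 deleted and Mll3/4 deleted. The same droplets carried counts of 6 barcoded antibodies, against CD150, CD48, CD201, CD135, CD117 and CD34. The labels give no allele, Cre driver, animal age or number of animals pooled. Because each genotype is 1 library, no difference below has a replicate check and none was tested. The intervals are exact and cover counting error only.

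Lymphoid priming is the low expression of lymphoid genes in progenitors that still form myeloid cells as well. It rises with the receptor Flt3, whose protein is CD135, in the lymphoid-primed multipotent progenitor (MPP4) fraction of LSK cells. Satb1 encodes a chromatin organiser needed for lymphoid development, and Mef2c a transcription factor that favours lymphoid over myeloid fate. Notch1 is the receptor that directs T lineage choice, and Ccr9 the chemokine receptor that draws progenitors to the thymus. Il12a encodes the alpha chain of interleukin 12, and Lsp1 an actin-binding protein of leukocytes.

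In GRCm38, Satb1 (ENSMUSG00000023927) lies at chr17:51736187-51833290 on the minus strand and Lsp1 (ENSMUSG00000018819) at chr7:142460809-142494867 on the plus strand. Ccr9 (ENSMUSG00000029530) spans chr9:123678439-123784330 on the plus strand and Il12a (ENSMUSG00000027776) chr3:68690644-68698547 on the plus strand. Notch1 (ENSMUSG00000026923) lies at chr2:26457903-26516663 on the minus strand and Mef2c (ENSMUSG00000005583) at chr13:83504034-83667080 on the plus strand. All 6 are protein coding. Exons of Ccr9 overlap those of Slc6a20a on the other strand and of Gm17200 on its own strand, and exons of Notch1 overlap genes on the other strand, so reads there could be shared in the counting.

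Satb1, Il12a and Ccr9 rose most with CD135 in the control cells, as described below, so their RefSeq promoter windows (GRCm38.p6, 250 bases before to 50 after a start) are shown with that of Notch1, which rose less. Capitals mark the E-box CAGGTG or its reverse complement CACCTG, of the kind bound by E proteins. Where a gene has several starts, the window farthest upstream is shown. The motif was chosen after the windows had been read.
Satb1, chr17:51833241-51833540, minus strand: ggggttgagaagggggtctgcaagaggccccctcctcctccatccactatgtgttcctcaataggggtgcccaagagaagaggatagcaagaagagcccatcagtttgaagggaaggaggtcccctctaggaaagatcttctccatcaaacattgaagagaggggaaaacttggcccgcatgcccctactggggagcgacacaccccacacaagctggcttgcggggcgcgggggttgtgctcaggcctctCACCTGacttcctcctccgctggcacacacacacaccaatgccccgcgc
Il12a, chr3:68690394-68690693, plus strand: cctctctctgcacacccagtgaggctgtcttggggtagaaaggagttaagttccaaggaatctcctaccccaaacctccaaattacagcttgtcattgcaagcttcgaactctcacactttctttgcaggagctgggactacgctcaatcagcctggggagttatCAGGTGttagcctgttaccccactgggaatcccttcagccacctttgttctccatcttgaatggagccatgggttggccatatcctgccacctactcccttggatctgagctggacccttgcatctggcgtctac
Ccr9, chr9:123766961-123767260, plus strand: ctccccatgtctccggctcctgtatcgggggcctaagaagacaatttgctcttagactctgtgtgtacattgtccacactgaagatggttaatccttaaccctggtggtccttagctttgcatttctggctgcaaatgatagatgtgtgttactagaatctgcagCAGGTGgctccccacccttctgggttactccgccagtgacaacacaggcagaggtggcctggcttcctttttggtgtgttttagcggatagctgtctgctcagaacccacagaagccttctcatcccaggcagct
Notch1, chr2:26503773-26504072, minus strand: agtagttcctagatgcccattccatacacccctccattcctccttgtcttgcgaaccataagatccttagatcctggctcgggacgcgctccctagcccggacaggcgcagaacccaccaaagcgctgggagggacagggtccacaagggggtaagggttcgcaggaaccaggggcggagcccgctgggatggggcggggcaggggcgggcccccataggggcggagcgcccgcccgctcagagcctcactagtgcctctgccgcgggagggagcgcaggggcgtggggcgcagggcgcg
The match began at base 2 after the start in Satb1, and 85 bases before it in both Il12a and Ccr9. Of the 5 members matched by symbol, 3 held the motif in at least 1 window: it was in 2 of 5 windows of Satb1, 1 of 2 of Il12a and the 1 of Ccr9, and in 0 of 1 of Notch1 and 0 of 3 of Mef2c. Over all genes 22.6% did, and 20.2% of all 32851 windows. A match describes the letters of the window and nothing more.

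The 4 libraries kept 4748 to 7274 cells of 5136 to 7702 deposited barcodes, with 50792614 to 120700343 UMIs in all and a median of 8920 to 21400 UMIs per cell. Any pair of libraries shared 7 to 14 kept barcodes. Kmt2c stood at 68.9 CPM in the control library, 35.3 in the Mll3, 61.3 in the Mll4 and 42.3 in the Mll3/4 library. Kmt2d stood at 24.6, 21.6, 22.6 and 25.4 in the same order, so it was near the control in the Mll4 library and not lower in the Mll3/4 library. UMIs come from the 3′ end, and a UMI outside the deleted part checks nothing, so the libraries are named here by their labels alone. Of the sort's own genes, Kit (215 to 362 CPM), Ly6a (93.4 to 255) and Ptprc (111 to 279) were present in every library. The 8 B lineage markers summed to 12428 CPM in the Mll3/4 library against 57.7 in control, 319 in the Mll3 and 60.7 in the Mll4 library. The 8 haematopoietic stem cell (HSC) markers summed to 5.93 there against 485, 515 and 285. In the Mll4 library, the 6 granulocyte-monocyte markers summed to 10272 against 1011 in control, and the 7 mast and basophil markers to 1623 against 22.4, with Tpsb2 at 0 in control. The part that these other cells play in the levels of whole libraries was not tested. Fewer cells of a type and less RNA per cell cannot be told apart in a summed library.

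Across whole libraries, the 6 genes split in the Mll3/4 library: Lsp1, Notch1 and Ccr9 were lower there, while Satb1 and Il12a were higher and Mef2c was close to control. Lsp1 stood at 90.6 CPM in control (95% interval 88.9 to 92.4), 93.8 in the Mll3, 90.6 in the Mll4 and 1.20 (0.919 to 1.54) in the Mll3/4 library. That is 61 UMIs against 10817, a log2 ratio of -6.23 (-6.63 to -5.88) or 74.9-fold lower, and no other library was near it. Notch1 stood at 22.6 in control, 24.5 in the Mll3, 13.3 in the Mll4 and 2.28 (1.89 to 2.74) in the Mll3/4 library. That is 9.87-fold lower in the Mll3/4 and 1.71-fold lower in the Mll4 library than in control. Ccr9 was sparse, with 128 UMIs in control (1.07 CPM), 185 in the Mll3 (1.75), 915 in the Mll4 (7.58) and 16 in the Mll3/4 library (0.315). It was therefore 7.04-fold higher in the Mll4 library and 3.31-fold lower in the Mll3/4 library than in control.

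Satb1 measured 45.5 CPM in control (44.3 to 46.8), 46.3 in the Mll3, 28.4 in the Mll4 and 62.3 (60.1 to 64.5) in the Mll3/4 library. The Mll3 and control intervals overlapped, the Mll4 library was lowest and the Mll3/4 library highest. With equal weight per cell the Satb1 log2 ratio of the Mll4 library moved from -0.68 to 0.03. Il12a was lowest in control, at 25.6, with 27.8 in the Mll3, 30.8 in the Mll4 and 43.7 (41.9 to 45.6) in the Mll3/4 library. Mef2c stayed within 1.23-fold of control throughout, at 279 in control, 332 in the Mll3, 227 in the Mll4 and 231 in the Mll3/4 library.

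**Figure D1:**
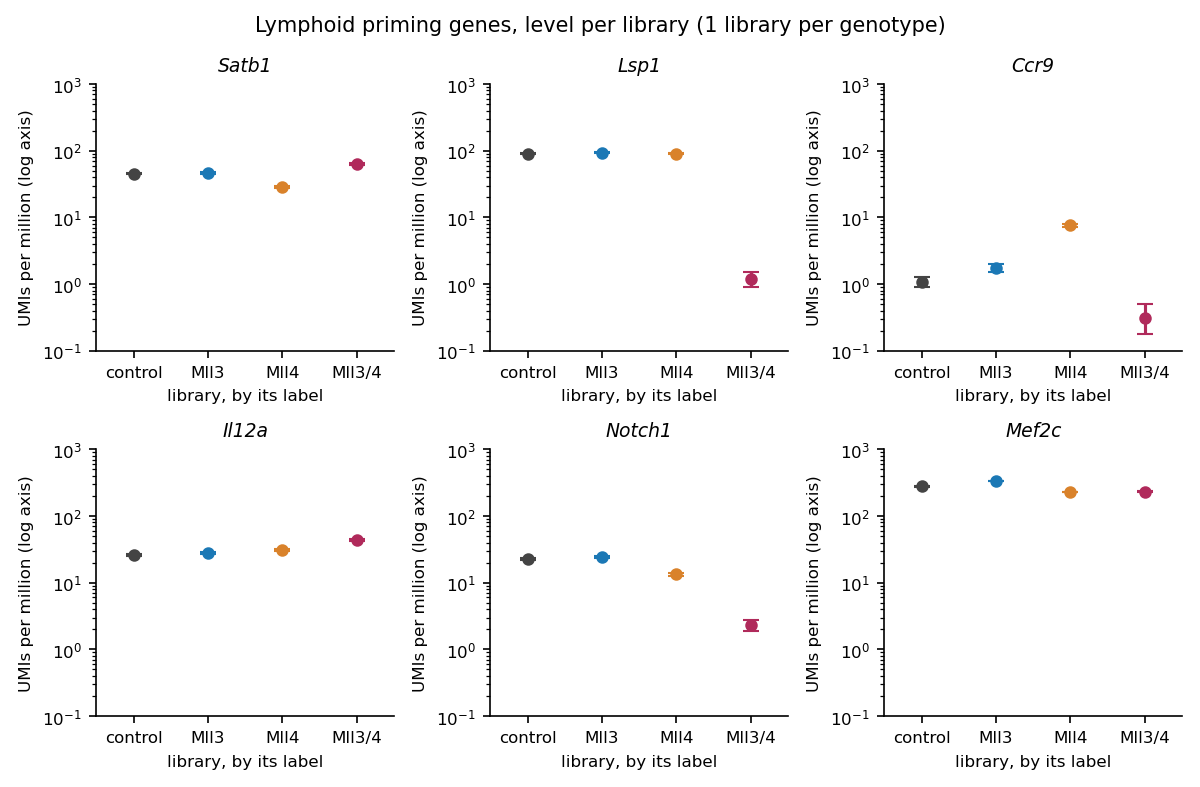
Level of each gene in each library, in CPM on a log axis, with exact 95% Poisson intervals as bars (1 library per genotype). Lsp1, Notch1 and Ccr9 drop in the library labelled Mll3/4, and Ccr9 is highest in the library labelled Mll4.

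Of the 6 genes, 0 lay past 2-fold in either direction in the Mll3 library, where 6084 genes averaged 20 CPM or more and 0.575% of these were 2-fold higher and 0.345% lower. The Mll4 library had 1 higher and 0 lower, beside 5.77% and 3.08% of 6046 genes. The Mll3/4 library had 3 lower and 0 higher, beside 8.75% lower and 7.53% higher of 5979 genes. The median log2 ratio of the 6 genes was 0.12 in the Mll3, -0.15 in the Mll4 and -1.0 in the Mll3/4 library. Over all genes it was 0.10, -0.12 and -0.07. Between 4 and 5 of the 6 genes passed the level minimum in each comparison. Ccr9 never did, and Notch1 did not in the Mll4 and Mll3/4 comparisons. Of the 3 lower genes of the Mll3/4 library, only Lsp1 is thus among the 5979. Ccr9, the higher gene of the Mll4 library, is not among the 6046.

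Shares of cells with a UMI were compared after each cell had been thinned to 3000 UMIs, which left out 14 control, 17 Mll3, 134 Mll4 and 33 Mll3/4 cells. Lsp1 was detected in 23.7% of control, 23.9% of Mll3 and 24.3% of Mll4 cells, but in 6 of 4715 Mll3/4 cells (0.127%, Clopper-Pearson 0.0467 to 0.277). Before thinning those shares were 69.2%, 69.3%, 53.8% and 0.505%. Satb1 was detected in 10.2% of control, 10.1% of Mll3, 9.38% of Mll4 and 18.2% (17.1 to 19.4) of Mll3/4 cells. Unthinned, Satb1 gave 30.2%, 27.9%, 35.2% and 42.8%. The Il12a share was 6.50%, 6.49%, 5.80% and 12.1% in the same order after thinning, and 23.5%, 22.5%, 29.1% and 29.1% before. So Satb1 and Il12a were found in more cells of the Mll3/4 library, not only in more UMIs of a few. Notch1 was found in 6.50% of control, 6.39% of Mll3, 3.91% of Mll4 and 0.424% of Mll3/4 cells after thinning, against 24.8%, 24.8%, 20.9% and 2.17% before. Mef2c, the most widely detected of the 6, was found in 53.0% of control, 57.5% of Mll3, 40.0% of Mll4 and 46.1% of Mll3/4 cells after thinning. Ccr9 was found in 0.413%, 0.542%, 1.95% and 0.0212%, the last being 1 cell, with up to 40 UMIs in a single Mll4 cell before thinning.

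Free RNA can give UMIs in cells that do not express a gene, so shares in other cell types stand beside these. Among 805 thinned megakaryocyte-like cells of the Mll3 library (median depth 17255 UMIs), Satb1 had a UMI in 0.745%, Notch1 in 2.11% and Il12a in 4.60%. Il12a had one in 0.769% of 520 mast or basophil-like cells of the Mll4 library (median depth 5293), where Satb1 had one in 28.5%. Both Satb1 and Il12a thus varied between cell types. The Notch1 share of the Mll3/4 library, whose median depth was 8920 UMIs, lay under that of the megakaryocyte-like cells. Those cells are of another library, so the comparison cannot show how much Notch1 in the Mll3/4 droplets was free RNA.

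Most thinned cells showed 1 of the genes or none. At least 3 of the 6 were seen together in 5.62% of control, 6.23% of Mll3, 2.75% of Mll4 and 1.10% of Mll3/4 cells. In control, Il12a had a UMI in 17.9% of 741 cells with Satb1 (15.3 to 20.9) and in 5.20% of those without (4.67 to 5.77). The Mll3 library showed the same pairing, at 23.1% with Satb1 and 4.63% without. For the Mll4 library the shares were 5.95% with Satb1 and 5.78% without, and in the Mll3/4 library 11.2% and 12.3%, with overlapping intervals in both. Il12a was thus detected more often in cells with Satb1 in the control and Mll3 libraries, and no such difference was detectable at this depth in the other two.

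Gates drawn from the antibodies place the genes along the progenitor series. HSC were taken as CD150+CD48-CD135-, MPP1 as CD150-CD48-CD135-, MPP2 as CD150+CD48+CD135-, MPP3 as CD150-CD48+CD135- and MPP4 as CD150-CD135+, with CD150+CD135+ cells apart. In control, every one of the 6 genes was highest in MPP4. Satb1 measured 3.68 CPM in HSC, 14.6 in MPP1, 17.8 in MPP2, 47.5 in MPP3, 149 (143 to 155) in MPP4 and 3.51 in CD150+CD135+ cells. Its highest gate was 42.5-fold above its lowest. Il12a spanned 8.15-fold in control, from 11.0 in HSC to 89.9 in MPP4, and Notch1 7.79-fold, from 7.60 in CD150+CD135+ cells to 59.2 in MPP4. Lsp1 spanned 2.55-fold with 151 in MPP4, and Mef2c 1.72-fold with 420 in MPP4. Of the 128 Ccr9 UMIs of control, 89 lay in MPP4, a level of 6.08 (4.89 to 7.49), against 32 in MPP3.

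In the Mll3 library all 6 genes were again highest in MPP4, and Satb1 was above control in all 6 gates although the whole-library intervals overlapped. In CD150+CD135+ cells, with 6 control UMIs, the interval of that ratio included 0. Satb1 measured 5.31 CPM in HSC, 28.2 in MPP1, 33.8 in MPP2, 79.7 in MPP3 and 184 in MPP4 there, or 0.52, 0.95, 0.92, 0.75 and 0.31 above control on the log2 scale. HSC, the gate with little Satb1, made up 44.4% of Mll3 and 23.7% of control cells. With the gates weighted to the control's mix, an alternative chosen after seeing the data, the Satb1 ratio was 0.60 in place of 0.03. Gate thresholds set per library left Satb1 higher in 3 of 6 gates, and gates on uncentred counts in 3 of 5. Without doublets it was higher in 5 of 6, with HSC at -0.05. In MPP2, MPP3 and MPP4 it stayed higher in each of the alternatives that could be computed, at 0.65 to 1.18, 0.68 to 0.78 and 0.25 to 0.42. Il12a and Notch1 followed in the CD48+ gates: Il12a was higher by 0.99 on the log2 scale in MPP2 and 0.72 in MPP3, and Notch1 by 1.11 and 0.68, while in HSC they differed by -0.23 and -0.22. Thresholds set per library gave 0.24 for Il12a in MPP3 and 0.16 for Notch1 in MPP2. Mef2c was higher in all 6 gates by 0.07 to 0.26, where the median over all genes of the whole library was 0.10. In MPP2 and in CD150+CD135+ cells the interval of the Mef2c ratio included 0, and uncentred counts gave -0.01 in MPP3.

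In the Mll4 library, over 5 gates, Satb1 spanned 12.7-fold, Il12a 2.72-fold and Notch1 2.84-fold, each less than in control, while Lsp1 spanned 4.32-fold and Mef2c 2.0-fold, each more. Unlike in control, Mef2c was highest there in HSC, at 365 CPM, with 315 in MPP4. Satb1 in MPP4 was 43.5 CPM (39.7 to 47.5) against 149 in control, a log2 ratio of -1.77. Leaving out mast, macrophage, plasma and T or innate lymphoid-like cells gave -1.61, and the 2 other gatings gave -1.07 and -1.14. Notch1 in MPP4 was 23.1 against 59.2, a ratio of -1.36. Il12a moved the other way in every gate but MPP4. It was 25.4 in HSC against 11.0 in control and 51.0 in MPP1 against 12.8. In MPP2 it was 22.2 against 14.7 and in MPP3 26.7 against 19.8, but in MPP4 60.2 against 89.9. The lower Il12a in MPP4 (-0.58) was lost when the cells of other lineages were left out (0.03). Lsp1 in MPP4 was higher, at 244 against 151. Leaving out the other lineages kept 289 of the 655 Mll4 cells of this gate, with Lsp1 at 274 against 151. Dendritic-like cells, which had much Lsp1 as given below, were not left out, and their part was not tested.

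In the Mll3/4 library Satb1 no longer followed the gates. Its level lay between 52.2 and 70.2 CPM in all 6 gates, a span of 1.34-fold, with the highest value in HSC and 59.5 in MPP4. Against control it was 4.25 higher on the log2 scale in HSC, where control had 3.68, and 1.32 lower in MPP4. Il12a spanned 1.63-fold, from 28.0 to 45.7, and Mef2c 1.28-fold. Lsp1 was at 0.114 to 6.06 in every gate and Notch1 at 1.24 to 4.25, below the lowest gate of control for each. MPP4 and CD150+CD135+ held 42.9% and 37.2% of this library, against 12.1% and 1.73% of control, and all but 29 of its cells fell in B lineage-like clusters, described below.

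Within MPP4, 0 of the 6 genes lay past 2-fold in the Mll3 library (0.789% of 5960 genes were higher and 0.403% lower). The Mll4 library had Ccr9 higher and Satb1 and Notch1 lower, so 1 and 2 of 6, where 8.20% of 5976 genes were higher and 6.29% lower. The Mll3/4 library had 5 lower and 0 higher, where 8.84% of 5859 genes were lower and 7.66% higher. That count was 3 with either other way of gating, because Satb1 fell short of 2-fold and Il12a was no longer lower (0.02 and 0.15). The remaining 3, Lsp1 (-8.03), Notch1 (-4.87) and Ccr9 (-4.26), were past it in all of these. Ccr9 was under the 20 CPM minimum behind the shares over all genes in each comparison. Flt3 mRNA in the MPP4 gate was 173 CPM in control, 196 in the Mll3, 88.7 in the Mll4 and 27.9 in the Mll3/4 library. The last was under the 46.0 of MPP1 and the 68.8 of MPP3 in control, so by Flt3 the gates of these 2 libraries did not match. The part of that in these counts was not tested.

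**Figure D2:**
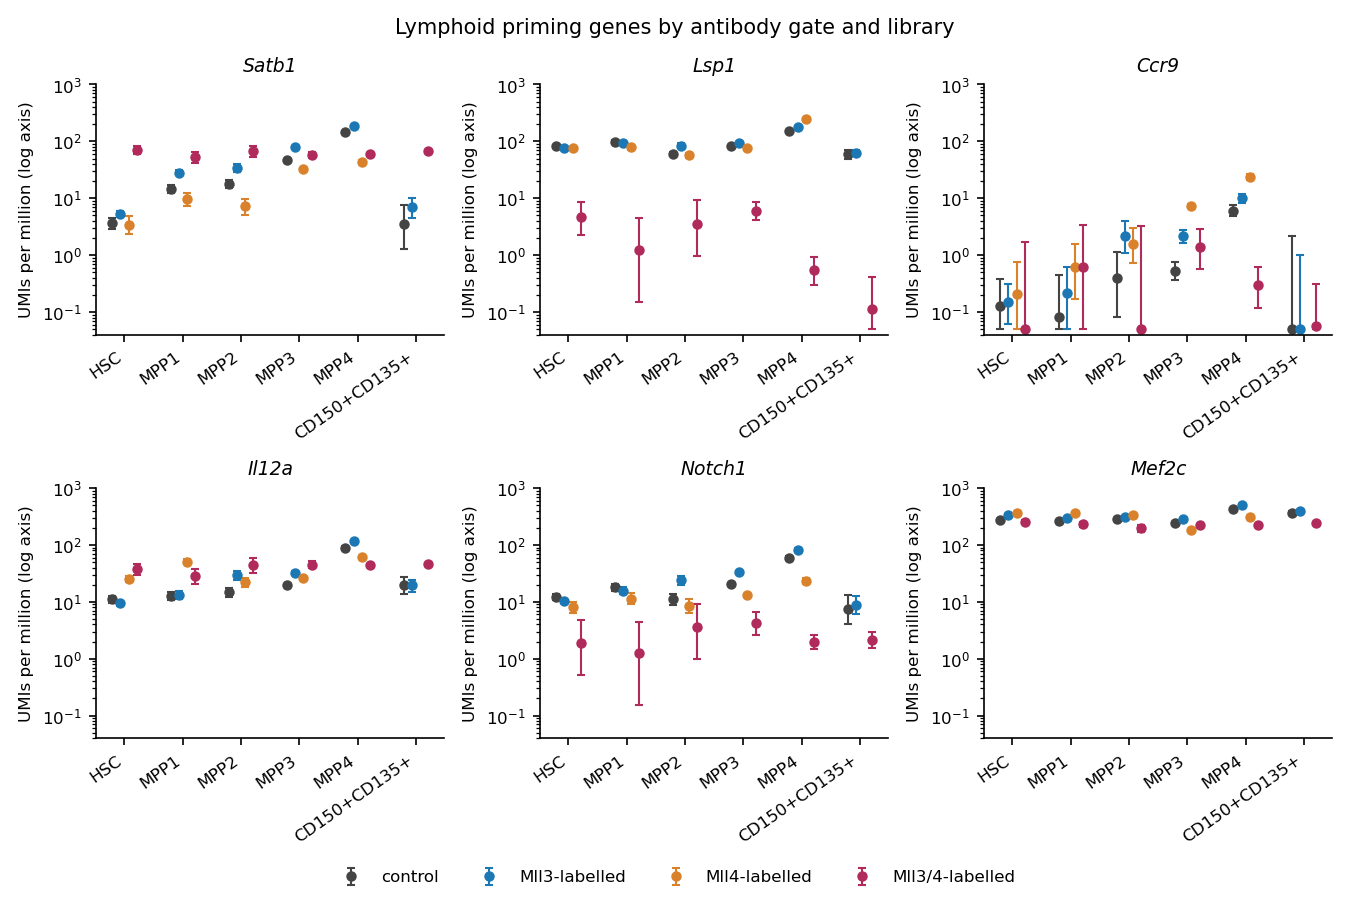
Level of each gene by antibody gate and library, in CPM on a log axis, with exact 95% Poisson intervals as bars; values and interval ends under 0.05 are drawn at 0.05, and gates under 100 cells are left out. Satb1 climbs from HSC to MPP4 in control, from 3.68 to 149, and lies flat in the Mll3/4 library.

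CD135 itself was then used as a scale. Cells of each library were split into quintiles by the centred log ratio of the CD135 antibody count, and Flt3 mRNA was read in the same quintiles. Flt3 was higher in the highest than in the lowest quintile in all 4 libraries, going from 30.6 to 137 CPM in control, 18.5 to 126 in the Mll3, 16.6 to 77.2 in the Mll4 and 14.3 to 46.2 in the Mll3/4 library. The gates showed an exception: in the CD150+CD135+ gate of control Flt3 was 5.84, under the 10.2 of HSC.

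In control, Satb1 measured 19.0, 23.3, 27.9, 47.8 and 114 CPM from the lowest to the highest quintile, a log2 ratio of 2.59 (2.45 to 2.73) between the ends. Most of that rise lay in the top quintile, 60.4% of whose cells were in the MPP4 gate. Il12a rose by 2.56, from 11.4 to 67.1, and Notch1 by 1.76, from 13.5 to 45.7. Ccr9 went from 4 UMIs to 104, a ratio of 4.70 (3.47 to 6.77). Lsp1 and Mef2c rose less, by 0.82 and 0.63. The Mll3 library repeated this gene by gene, at 2.57 for Satb1, 2.79 for Il12a, 1.74 for Notch1, 0.86 for Lsp1 and 0.60 for Mef2c. Its Ccr9 went from 2 UMIs to 130, a ratio of 5.94 (4.37 to 9.32).

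The order of the genes along CD135 was another in the Mll4 library. Lsp1 was higher at each step, at 36.5, 62.3, 79.4, 138 and 221 CPM over the quintiles, a ratio of 2.60 where control had 0.82. Satb1 went only from 22.7 to 38.3, a ratio of 0.75, and Il12a from 21.5 to 53.6, a ratio of 1.32. Ccr9 rose by 2.77, from 100 UMIs to 310. The median depth of the cells fell from 36106 UMIs in the lowest quintile to 14551 in the highest of this library, and the part of that in these ratios was not tested.

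Satb1 of the Mll3/4 library was level along the CD135 scale, at 60.9, 62.4, 59.4, 62.4 and 65.6 CPM, a ratio of 0.11 (-0.05 to 0.27) while Flt3 rose by 1.69. Il12a rose by 0.38 and Mef2c changed by -0.06. Lsp1 ran the other way, with 46, 6, 3, 4 and 2 UMIs from the lowest to the highest quintile, a ratio of -4.40 (-7.79 to -2.77). The lowest quintile was also CD48-rich, with a median of 1007 CD48 counts per cell against 69.0 in the highest. With quintiles of the uncentred CD135 count, the Lsp1 ratio was -0.14.

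Between the end quintiles, 4 of the 6 genes were 2-fold higher and 0 lower in control, where 0.903% of 5977 genes were higher and 0.368% lower. The Mll3 library also had 4 higher and 0 lower, beside 1.11% and 0.468% of 6197 genes. The Mll4 library had 3 higher and 0 lower, beside 6.29% and 2.86% of 5981 genes. The Mll3/4 library had 0 higher and 2 lower, beside 0.139% and 0.330% of 5760 genes. The 2 were Lsp1 and Ccr9 (3 UMIs against 8, a ratio of -1.46 with the interval -4.14 to 0.46). From the lowest to the highest quintile Lsp1 went from 4.65 to 0.179 CPM and Ccr9 from 0.809 to 0.268. Both were under the level minimum behind the shares over all genes, so neither is among the 5760. Ccr9 was also counted as higher in the control, Mll3 and Mll4 libraries, and was under that minimum there too. The rise depends on how CD135 is scaled: ranked by CD135 per 1000 antibody counts, 1 gene each was 2-fold higher in the control, Mll3 and Mll4 libraries, and Satb1 was not higher in the last (-0.58) nor in the Mll3 library (-0.04).

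**Figure D3:**
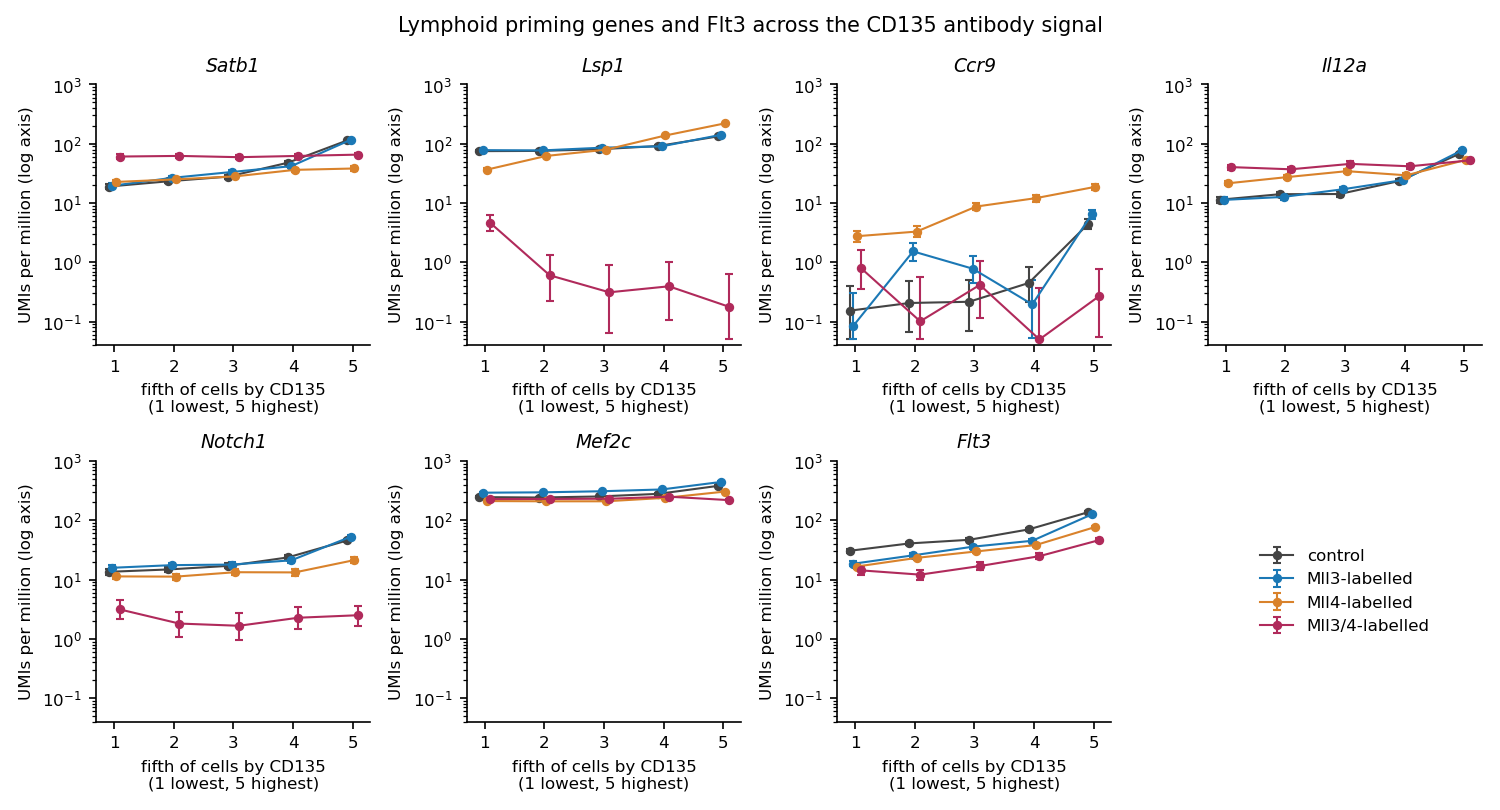
Level of the 6 genes and of Flt3 in quintiles of cells ranked within each library by CD135 antibody signal, in CPM on a log axis, with exact 95% Poisson intervals; values and interval ends under 0.05 are drawn at 0.05. Satb1 climbs from 19.0 to 114 in control and stays between 59.4 and 65.6 in the Mll3/4 library, while Flt3 climbs in all 4.

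Clusters were built from 2000 variable genes without the 6 members, and were named from marker lists. B lineage-like clusters held 4719 of the 4748 Mll3/4 cells, all but 1 of them in clusters 17 and 18, where all 8 markers of the list were raised. The control library held too few cells of that kind, but cluster 14, also B lineage-like, held 161 Mll3 cells. Satb1 measured 62.7 CPM in the former and 66.4 in the latter, and Il12a 43.9 and 37.9, with log2 ratios of -0.09 (-0.26 to 0.10) and 0.21 (-0.02 to 0.45). Lsp1 measured 0.260 in the Mll3/4 B lineage-like cells and 67.4 in the Mll3 ones, a log2 ratio of -7.97 (-8.94 to -7.22). Notch1 measured 2.16 against 32.3 (-3.90), and Mef2c 230 against 331 (-0.52). So in summed levels, against B lineage-like cells of another library, Satb1 and Il12a did not differ beyond counting error. Lsp1, Notch1 and Mef2c did. The Il12a share did differ: after thinning it was 12.2% (11.3 to 13.2) of the Mll3/4 and 5.59% (2.59 to 10.3) of the Mll3 cells. The Satb1 share was 18.2% and 19.3%. Median depth before thinning was 8936 and 24359 UMIs. Of the 5 genes with UMIs in both, 2 were past 2-fold lower and 0 higher, beside 11.7% lower and 9.06% higher of 5729 genes. Of the 2, Notch1 was under the level minimum behind the shares over all genes, so only Lsp1 is among the 5729. Ccr9 had 12 UMIs in the Mll3/4 cells and 0 in the far fewer Mll3 cells, so no fold is given. These clusters are each nearly all of 1 library, so the library and the cell state cannot be told apart.

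The Mll3/4 library had only 29 cells outside the B lineage-like clusters, and they carried 48 of its 61 Lsp1 UMIs (78.7%), with a UMI in 19 of the 29. They carried 8 of 116 Notch1 UMIs and 26 of 3162 Satb1 UMIs. Between its own B lineage-like clusters, Notch1 was 1.49 (1.12 to 1.94) in cluster 17 and 4.08 (3.06 to 5.34) in cluster 18, and Satb1 67.9 and 48.

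In the control library most Satb1 came from an unnamed cluster led by Ltc4s, Shisa8 and Flt3 (cluster 0), with 49.0% of its UMIs, and from an unnamed cluster led by Hist1h1a (cluster 7), with 33.4%. Cluster 0 also held 52.6% of the Il12a and 65.6% of the Ccr9 UMIs of control. Between the control and Mll3 cells of cluster 0, Satb1 stood at 67.4 and 129 CPM, with intervals that did not overlap, Il12a at 40.7 and 84.0, and Notch1 at 28.5 and 49.8. At the finer resolution of 1.0, a cluster with Flt3 and Satb1 among its leading genes held 803 control and 414 Mll3 cells. Another, led by Ltc4s, held 1402 and 463. The part of such a mix in the levels of cluster 0 was not tested. In cluster 7 Satb1 was 49.2 and 52.4, with overlapping intervals. Only 44 Mll4 and 5 Mll3/4 cells fell in cluster 0.

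The extra Ccr9 of the Mll4 library was held by few cells. Cluster 5, T or innate lymphoid-like and led by Il23r, Ccr6 and Ncr1, had 380 of the 915 UMIs in 354 cells, a level of 120 CPM (108 to 133). Another 140 UMIs lay in 9 cells of cluster 12, led by Cd3e and Cd3g, and 96 in 132 plasma-like cells. Among 989 macrophage-like cells, 7 cells held 94 UMIs. The 44 cells of cluster 0 held 85. With mast, macrophage, plasma and T or innate lymphoid-like clusters left out, the log2 ratio of Ccr9 to control went from 2.82 to 1.13. In the Mll3 library the T or innate lymphoid-like class was mostly cluster 12 instead, where Ccr9 was 12.1, Satb1 177 and Notch1 162.

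Lsp1 in the Mll4 library had a similar split behind an unchanged total. Its 92 dendritic-like cells had 1303 CPM and 23.4% of the Lsp1 UMIs, and the macrophage-like cells 255 and 28.7%. Its 1010 granulocyte-monocyte-like cells had 6.54 (5.83 to 7.30), against 30.8 (24.5 to 38.1) in 98 such cells of control and 39.1 in 106 of the Mll3 library. At the finer resolution of 1.0 these cells parted by library, with 980 Mll4 and 5 control cells in 1 cluster and 12 and 87 in another. Without the mast, macrophage, plasma and T or innate lymphoid-like clusters the log2 ratio of Lsp1 to control was -0.43, and as a whole library -0.00. Satb1 in mast or basophil-like cells, 590 of them, was 111, while Mef2c there was 22.8.

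**Figure D4:**
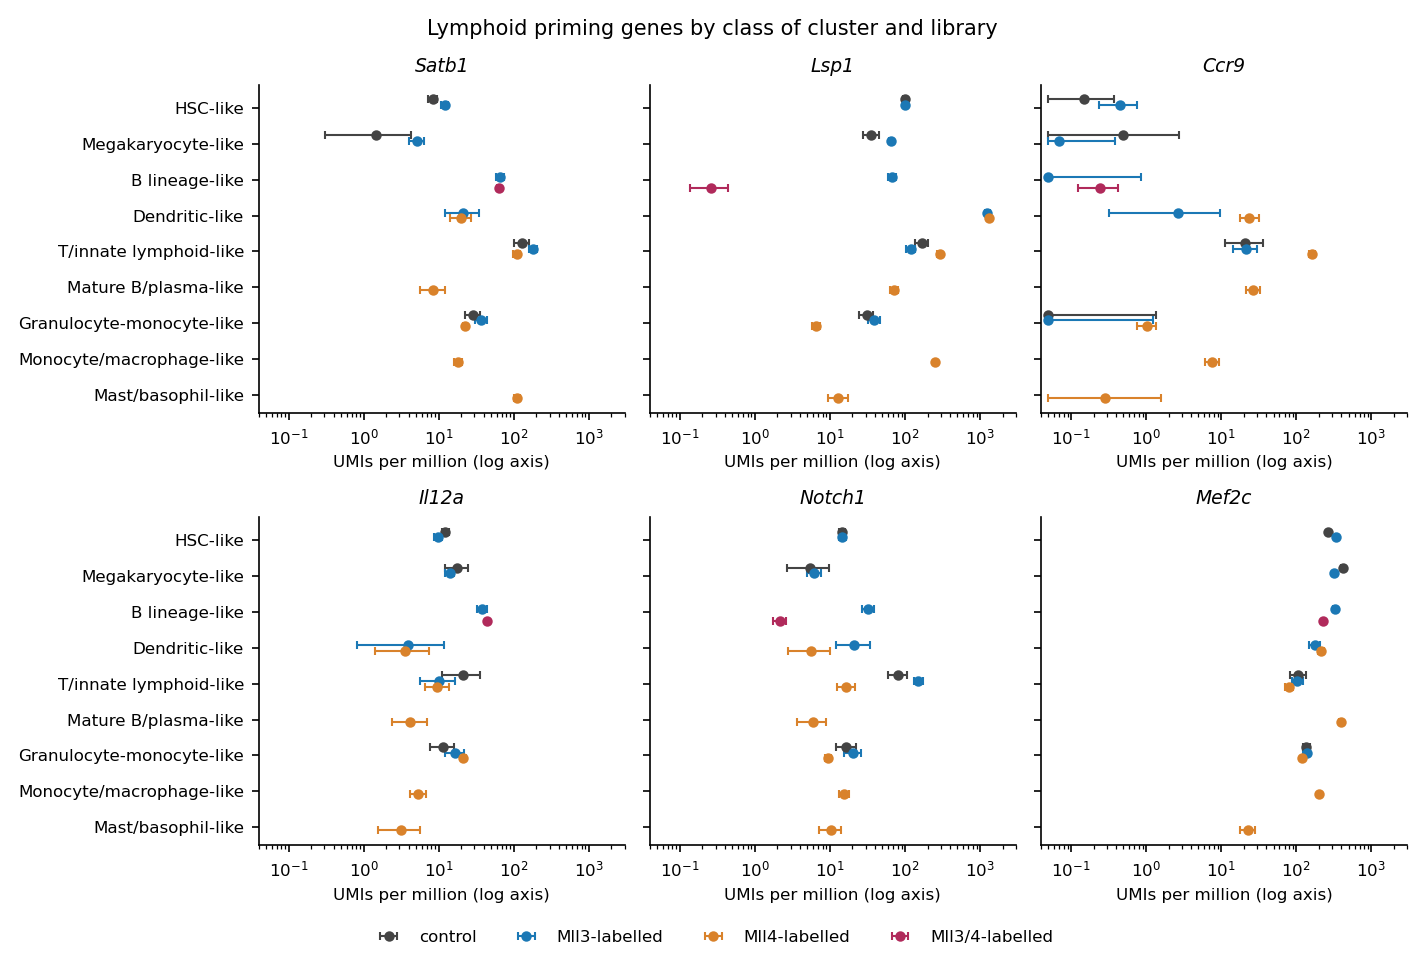
Level of each gene by class of cluster and library, in CPM on a log axis, with exact 95% Poisson intervals, for classes of at least 50 cells; values and interval ends under 0.05 are drawn at 0.05. Lsp1 of B lineage-like cells is 67.4 in the Mll3 and 0.260 in the Mll3/4 library, while Satb1 coincides.

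Other lymphoid genes were read as lists, counted over all listed genes and over those with a mean of at least 20 CPM over both libraries, the minimum behind the shares over all genes. Of 12 companions of lymphoid priming, 6 were 2-fold higher and 5 lower in the Mll3/4 library (median log2 ratio 2.10), and of the 11 at the minimum 6 were higher and 4 lower, beside 7.53% and 8.75% of all genes. Rag1, of the antigen receptor recombinase, went from 0.746 to 399 CPM and Blnk, a B cell adaptor, from 2.66 to 552. Cd27, a receptor of the tumour necrosis factor receptor family, went from 148 to 4.65. The companions thus moved both ways in the library where Lsp1, Notch1 and Ccr9 were lower, while Satb1 and Il12a were higher by less than 2-fold. Of the companions in the Mll4 library 6 of 12 were higher and 2 lower (median 0.82), and at the minimum 5 and 2 of 8, beside 5.77% and 3.08% of all genes. Il7r, the interleukin 7 receptor, was 52.8 there against 5.16 and Dntt, the terminal transferase, 42.3 against 106. In the Mll3 library 5 of 12 were higher and 0 lower (median 0.61), and at the minimum 1 of 7, Ly6d, at 47.5 against 13.4, beside 0.575% of all genes.

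Of 12 lymphoid transcription factors, 5 were 2-fold higher and 2 lower in the Mll3/4 library (median 0.87), and at the minimum 5 and 1 of 10, beside the same 7.53% and 8.75%. The B lineage factors Ebf1 and Pax5 went from 4.41 to 1911 and from 0.612 to 285, and the myeloid and lymphoid factor Spi1 from 123 to 6.04. In the Mll3 library 2 of 12 were higher, among them Ebf1 (35.4 against 4.41). Of the 7 at the minimum 0 were, beside 0.575% of all genes. In the Mll4 library 2 of 12 were higher and, at the minimum, 1 of 8, Gfi1 (31.9 against 12.8), beside 5.77%. None of the 12 was 2-fold lower in either.

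Of 17 other genes of the Notch pathway, 3 were 2-fold higher and 5 lower in the Mll3/4 library (median -0.24), where Notch1 itself was 9.87-fold lower. Of the 4 at the minimum 1 was higher and 0 lower, beside 7.53% and 8.75% of all genes. Of the 17, 2 had 3 UMIs or fewer in either library. The target gene Hes1 went from 2.06 to 131 CPM and Hes5 from 4.06 to 33.5, while Rbpj, the transcription factor of the pathway, was 41.8 against 49.2. Of the 7 with at least 20 CPM in the control or the Mll3/4 library, 3 were higher and 0 lower. The 5 lower genes were thus all under that level, and both directions appear only when such genes are counted. In the Mll3 library 3 of the 17 were higher and 0 lower, and in the Mll4 library 3 and 3. At the minimum it was 0 of 3 and 0 of 5 in either direction. All genes gave 0.575% higher and 0.345% lower in the Mll3 and 5.77% and 3.08% in the Mll4 library. Of the 15 family relatives, 2 were 2-fold higher and 7 lower in the Mll3/4 library. The counts were 9 and 1 in the Mll4 and 1 and 4 in the Mll3 library. Of the 15, 6 had 3 UMIs or fewer in the Mll3/4 or control library, and 3 did in each other comparison. Only 2 were at the minimum in the Mll3 and Mll3/4 libraries, and 0 of these were past 2-fold, beside the same shares of all genes as above. Mef2a was 67.2 in the Mll3/4 library against 41.6. In the Mll4 library 2 of 4 at the minimum were higher, Ccr2 (155 against 5.42) and Cxcr4 (35.2 against 14.6), beside 5.77% of all genes.

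**Figure D5:**
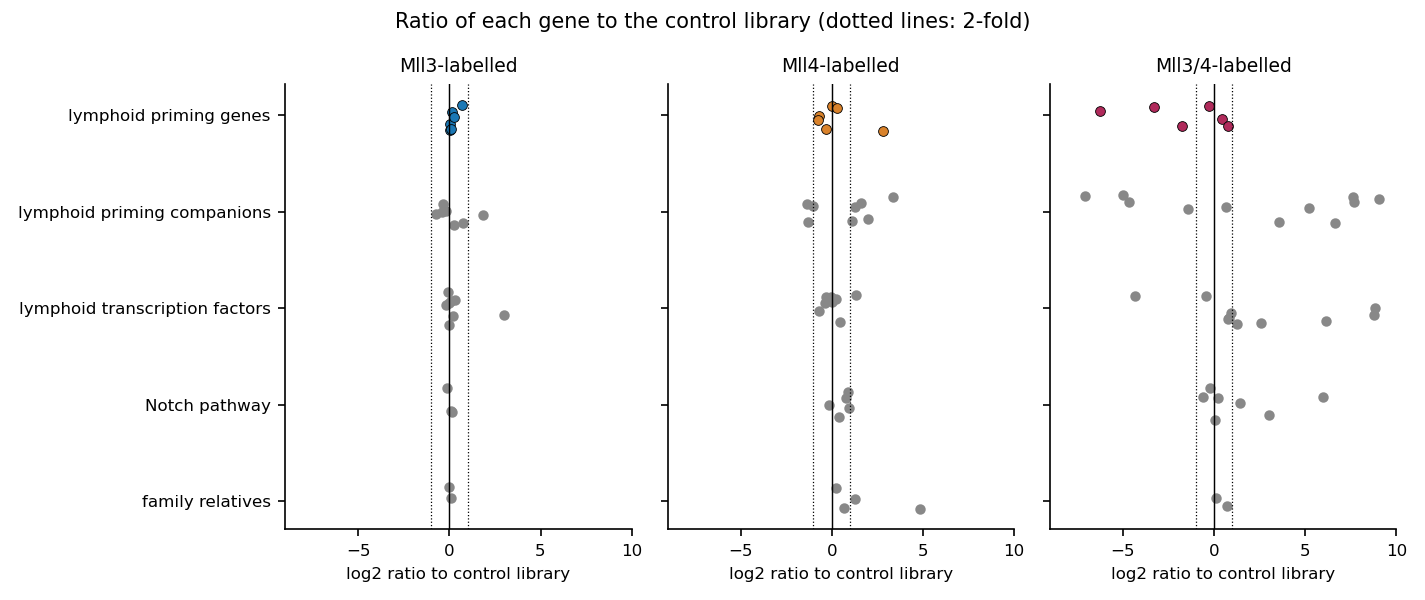
Log2 ratio of each gene to the control library, for the 6 lymphoid priming genes and for the genes of each list with at least 20 CPM in the control or in that library; points are spread vertically for legibility and dotted lines mark 2-fold. The companions of the Mll3/4 library fall on both sides, 6 past 2-fold higher and 4 lower.

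Likeness was described over the 23 sums of library and gate with at least 100 cells, as Pearson's r of log2(CPM + 1) among 5910 genes. These points share libraries and depth, so no test is given. Over these sums the 6 genes did not form 1 group. Lsp1 followed Notch1 (r = 0.87) and Satb1 followed Il12a (0.71). Satb1 with Lsp1 gave -0.29 and with Notch1 0.14. Ccr9 gave 0.61 with Notch1 and 0.59 with Il12a, and Lsp1 gave 0.60 with Mef2c but -0.15 with Il12a. The Mll3/4 library held 6 of the 23 sums, and its part in these r values was not tested. In control all 6 were highest in MPP4. Among thinned control cells Notch1 had a UMI in 13.9% with Satb1 and 5.66% without. The Mll3 library gave 15.6% and 5.36%, while intervals overlapped in the Mll4 (6.18% and 3.67%) and Mll3/4 (0.698% and 0.363%) libraries. The nearest genes of Satb1 were Tm6sf1 (0.910), Ccdc88c (0.908) and Mgat1 (0.907). Those of Lsp1 were P2ry14 (0.978), Rassf2 (0.975) and Ptpn6 (0.974), and those of Notch1 were Ncf4 (0.946), Xpc (0.944) and H2-DMa (0.926). Ccr9 was nearest to Unc93b1 (0.930), H2-Ab1 (0.926) and Mpeg1 (0.900). Il12a was nearest to Cd69 (0.869), Azin1 (0.749) and Cnn3 (0.741), and Mef2c to Tcf20 (0.746), Trp53rka (0.745) and Lims1 (0.744), all further off than the neighbours of Lsp1.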

How the data were processed

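The authors deposited 1 matrix of raw counts (UMIs per gene, and antibody counts) per library, with gene and barcode lists. Cell Ranger 6.1.1 and mm10 are named per the submitters' processing notes. The counting's use of strand is not given in the sources used here. Kept were barcodes that showed 1000 genes or more with no more than 10% mitochondrial UMIs, and no doublets were removed. Scrublet's own threshold called 3, 3, 171 and 1 cells in the control, Mll3, Mll4 and Mll3/4 libraries, so it had not worked in 3 of the 4. UMIs were summed over cells and divided by the total, and log2 ratios had 0.5 UMI added to each count. Shares over all genes past 2-fold cover genes that averaged 20 CPM or more over the groups compared. Gate thresholds were the crossing of a 2-component Gaussian mixture on the centred log ratio (scikit-learn 1.9.0). Cells were clustered with scanpy 1.11.5 (30 components, 15 neighbours, Leiden resolution 0.6), and a name needed 3 raised markers. Ratios and calls were checked on simulated Poisson counts, changed only in genes well above the level minimum in control. That check does not cover genes as low as Ccr9, nor UMIs clumped in a few cells. The 6 genes, the lists and the markers were chosen with earlier results of these data known. Of each list, the 2 highest and 2 lowest ratios among genes with at least 20 CPM in the control or that library could be named, and for likeness the 3 nearest genes. Alternatives covered doublets, cell filter, other-lineage clusters, scaling (edgeR 4.0.16 TMM and DESeq2 1.42.0 size factors), weights, gates and CD135 scale.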

Additional observations from a re-analysis of the deposited data

Results flagged for a closer look

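The Lsp1 ratio between the highest and lowest quintile of CD135 was -4.40 on the log2 scale in the Mll3/4 library, with 2 UMIs against 46, while it was 0.82, 0.86 and 2.60 in the control, Mll3 and Mll4 libraries. It stands out because 1 library moved opposite to the other 3. The difference was not tested, since each genotype is 1 library. With quintiles of the uncentred CD135 count the ratio was -0.14, and 48 of the 61 Lsp1 UMIs of that library lay in 29 cells outside the B lineage-like clusters.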

How the results depend on the processing

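No paired analysis was possible because each genotype is 1 library with no replicate, and for the same reason no replicate could be left out. Lsp1, Notch1 and Ccr9 of the Mll3/4 library stayed 2-fold lower than control as whole libraries under every alternative except gates weighted to control shares, chosen after seeing the data, where Ccr9 was at -0.40. Under the stricter cell filter (2000 genes, 5% mitochondrial), 1 gene was 2-fold higher in the Mll3 whole library and 1 in its MPP4 gate, in place of 0, and with gates weighted to control shares 1 in the whole library. The median ratio of the 6 genes in the Mll3 library was 0.02 with TMM and with size factors, 0.03 without mitochondrial and ribosomal protein genes, and 0.49 with gates weighted. It was -0.05 with the stricter filter, -0.33 without clusters of other lineages, -0.11 with TMM, -0.10 with size factors, -0.20 without mitochondrial and ribosomal protein genes, -0.01 with equal weight per cell and -0.00 with gates weighted, all in the Mll4 library. In the Mll3/4 library it was -0.62 with the stricter filter, -1.96 with equal weight and -0.34 with gates weighted. Directions turned for Lsp1 in the Mll3 library (-0.05 with TMM and size factors, -0.03 without mitochondrial and ribosomal protein genes), and for Satb1 (0.03) and Il12a (-0.05) in the Mll4 library with equal weight. In MPP4, uncentred counts left 1 gene 2-fold lower in the Mll4 library and 3 in the Mll3/4 one, and thresholds per library also 3. Il12a in MPP4 turned to 0.03 without other lineages and 0.04 with uncentred counts in the Mll4 library, and to 0.02 (uncentred) and 0.15 (per library) in the Mll3/4 one. With CD135 per 1000 antibody counts, 1 gene was 2-fold higher between the end quintiles in the control, Mll3 and Mll4 libraries, with Satb1 at -0.04 and Lsp1 at -0.05 in the Mll3 and Satb1 at -0.58 in the Mll4 library. Deciles gave 5 genes in the Mll4 library. For CD135 in the Mll3/4 library, the counts of higher and lower genes were 1 and 1 without doublets and 2 and 0 with the uncentred CD135 count, and 1 was lower with equal weight. The cause of these changes was not tested. Of 189 alternative values of counts and medians, 160 did not move. Ccr9, with 16 UMIs in the Mll3/4 library, is limited by depth.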
